A study of Mus musculus with 6 samples.

Results

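Cyclic AMP signalling genes were examined in bulk RNA-Seq of gastrocnemius-plantaris (GP) muscle, a mixed calf muscle, from mice in the Net39 conditional knockout study. The genes were all those whose symbol in the count tables began with Pde, Adcy or Akap followed by a digit, or with Prkac or Prkar. This rule found 58 of the 24421 genes listed. They were 25 genes named as phosphodiesterases, 10 adenylyl cyclases, and 2 catalytic and 4 regulatory subunits of protein kinase A (PKA). The rest were 16 A-kinase anchoring proteins (AKAPs) and Pde4dip. Of the 25, Pde6d encodes a carrier rather than an enzyme in muscle. Pde4dip encodes myomegalin, a Golgi and centrosome scaffold that binds Pde4d but is not itself a phosphodiesterase.

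The series holds 3 Ctrl-labelled libraries (Net39 fl/fl, no Cre) and 3 labelled cKO (HSACreERT2;Net39 fl/fl), each from a male mouse at 5 months of age, 3 months after tamoxifen, which both groups received. The labels give the background as B6C3F1, while the methods of the study describe crosses of the founders to C57BL/6N mice and to the Cre line, so that it may be mixed. The Cre is driven by the human skeletal actin promoter, active in muscle fibres but not in satellite cells. The libraries held 33860001 to 38201728 counts under the label Ctrl and 39191239 to 48839910 under the label cKO. Net39, a muscle protein of the nuclear envelope, is listed under its older symbol Ppapdc3. It had 7.92, 7.75 and 5.93 CPM (counts relative to library size, scaled by TMM factors) in the Ctrl-labelled libraries 1, 2 and 3 and 151, 113 and 138 CPM in those labelled cKO 1, 2 and 3. The targeted gene was thus low under the label Ctrl and high under the label cKO, against the labels. Its first exon is the floxed part, and counts are over the whole gene. Groups are therefore called by their labels throughout, and a positive log2 fold change means a higher level under the label cKO. Whether labels or files were exchanged was not settled here, and an exchange would reverse each direction given.

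Cyclic AMP is made by adenylyl cyclases when Gs-coupled receptors activate the stimulatory G protein. It releases the catalytic subunits of PKA from their regulatory subunits, and phosphodiesterases end the signal by hydrolysing it. AKAPs hold the kinase, and often a phosphodiesterase, at places such as the nuclear envelope, mitochondria and the calcium channels of the surface membrane. In skeletal muscle the pathway drives glycogen breakdown and calcium release, and its long-term stimulation makes fibres grow.

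A total of 47 genes of the set passed the expression filter. Of these, 4 were higher in the cKO-labelled libraries (Pde4b, Pde4a, Prkar2a and Prkacb) and 9 in those labelled Ctrl (Pde10a, Pde4c, Adcy7, Adcy5, Akap6, Adcy4, Akap13, Akap7 and Prkaca), at an adjusted p under 0.05 from edgeR's quasi-likelihood test. These 13 genes were 27.7% of the 47, against 24.4% of the 14180 genes tested in the whole table, and by direction 12.6% of all genes were higher in the cKO-labelled libraries and 11.8% in those labelled Ctrl. The median log2 fold change of the 47 was -0.05, beside -0.02 over all genes. In 20 of the 47 (42.6%) groups had no overlap in CPM, near the 43.9% of all genes tested. The shares of the set without overlap and called in either direction were thus near those of the table. By direction, more genes of the set were higher under the label Ctrl (9) than under the label cKO (4), unlike the table. This difference was not tested, and the results below concern single genes. Scaling by total counts instead, which moved the median of all genes to -0.27, gave 3 genes of the set higher under the label cKO and 16 under the label Ctrl. With each library left out in turn, 6 of the 13 calls were kept in each of the 6 fits: Pde4a, Pde4b, Prkar2a, Prkacb, Pde10a and Adcy4. The count of genes higher under the label Ctrl was 2 in the fit without Ctrl 1. This count was 3 without Ctrl 2 or cKO 3, 5 without Ctrl 3 and 4 without cKO 1.

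**Figure D1:**
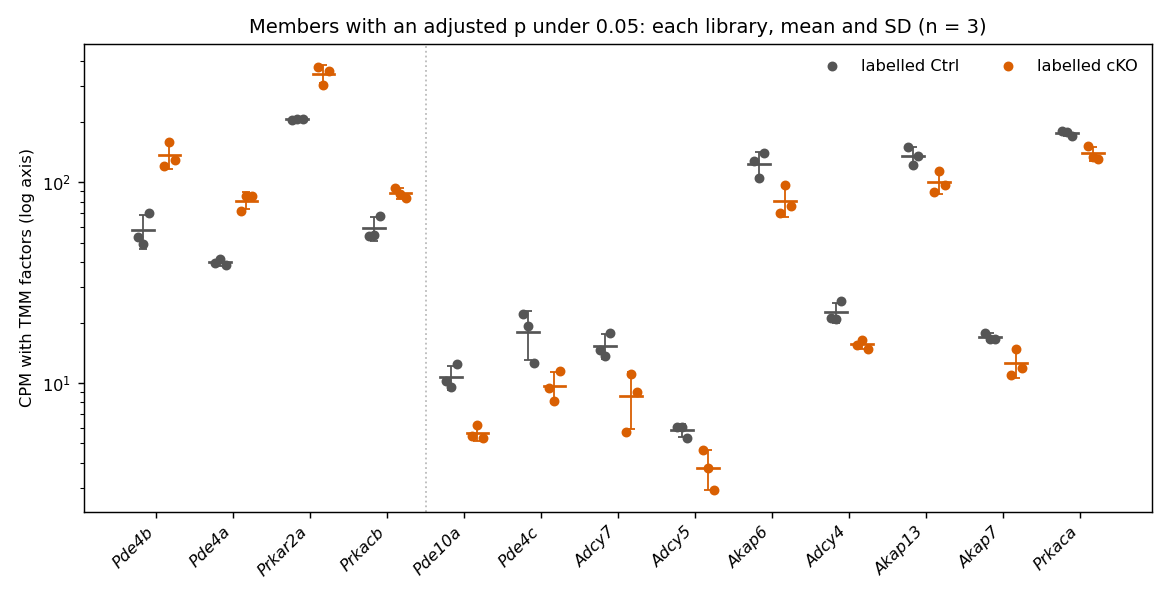
CPM on a log axis for the 13 genes with an adjusted p under 0.05, with each library as a point, the group mean as a line and the SD as a bar (n = 3). Left of the dotted line are the 4 genes higher in the cKO-labelled libraries, right of it the 9 higher in those labelled Ctrl, and in each gene the points of the groups do not overlap.

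The cAMP response element, bound by CREB and its relatives, is the DNA element through which the pathway acts on genes, and was searched for in the RefSeq promoter windows (GRCm38.p6, 250 bases before to 50 after each start), which were found for 47 of the 58 genes. The full element, TGACGTCA, was in the windows of 1 of these 47, Prkar1a, and in 549 of 27025 genes overall (2.03%). The short element, TGACG or CGTCA, which the full element also holds, was in 16 of the 47 (34%), beside 6228 (23%) of all genes. Per window the shares were alike, at 20% of the 90 windows of the set and 20.8% of all windows. All 4 genes higher in the cKO-labelled libraries had a short element in at least 1 window, as did 2 of the 9 higher in those labelled Ctrl (Adcy7 and Prkaca). Genes with more starts have more windows, so these counts are descriptions of letters and not of binding. The site of Prkar1a is shown as the full element, and those of the called genes to set both directions side by side, with the element in capitals.
Prkar1a (chr11:109650900-109650907, plus strand, 38 bases after a start, intron): cgaggcgcatTGACGTCAgcag
Pde4a (chr9:21184051-21184055, plus strand, 50 bases before a start, intron): cacagctcgaCGTCAggctggggag
Pde4b (chr4:102421521-102421525, plus strand, 34 bases before a start, noncoding exon): tttggctgcaCGTCAattttctcat
Prkar2a (chr9:108692139-108692143, plus strand, 4 bases before a start, noncoding exon): cggccgcgtgCGTCAcaacccgggc
Prkacb (chr3:146813044-146813048, minus strand, 102 bases before a start, outside the gene): ggcttgaccgCGTCActtccggcgc
Adcy7 (chr8:88282964-88282968, plus strand, 28 bases before a start, intron): atcatagagcCGTCAggggggtggg
Prkaca (chr8:83972858-83972862, plus strand, 120 bases before a start, outside the gene): ctgcaactcgCGTCActcatccagg
Prkaca (chr8:83972972-83972976, plus strand, 6 bases before a start, outside the gene): gctgcgggggCGTCAcggacagagg
The places are those of GENCODE M21 models on GRCm38 (mm10). Where a site lies in an intron, it stands beside an internal start of the gene.

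The phosphodiesterases that changed most were of the Pde4 family, whose 4 genes encode cAMP-specific enzymes and did not move together. Pde4b (chromosome 4, 102087543 to 102607259) was at 53.1, 49.4 and 70.3 CPM in the Ctrl-labelled libraries 1, 2 and 3 and 120.4, 159 and 129.6 CPM in those labelled cKO. All 3 cKO-labelled libraries were above all those labelled Ctrl, by a log2 fold change of 1.24 (standard error 0.16, edgeR adjusted p = 0.00397), or 2.36-fold. Pde4a on chromosome 9 (21165714 to 21213248) had 39.5, 41.6 and 38.6 CPM under the label Ctrl and 71.9, 85.7 and 85.4 CPM under the label cKO. Its groups were also apart, by a log2 fold change of 1.02 (standard error 0.09, edgeR adjusted p = 0.00144). These were the only genes of the set with a fold change over 2 among those passing the test, beside 2.13% of all genes in this direction. With total counts the log2 fold change was 1.00 for Pde4b and 0.77 for Pde4a, and both still passed the test but not the fold of 2. In the fits without cKO 2 or without cKO 3, 1 gene, Pde4b, had a fold over 2. Of the 9 genes higher in the Ctrl-labelled libraries, 0 had a fold change over 2, beside 3.92% of all genes. That count was 0 by DESeq2 and at an unadjusted p under 0.05, 3 with total counts, 2 without cKO 2, and 1 without Ctrl 2, Ctrl 3 or cKO 3.

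Pde4c went the other way. It had 22.1, 19.3 and 12.5 CPM in the Ctrl-labelled libraries and 9.4, 8.15 and 11.5 CPM in those labelled cKO. The lowest library labelled Ctrl, number 3, lay close to the highest labelled cKO, also number 3. The log2 fold change was -0.89 (standard error 0.22, edgeR adjusted p = 0.0292), and 4 of the 6 fits without 1 library lost the call, with an adjusted p of 0.0957 without Ctrl 1.

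Pde4d, a partner of Akap6 and the most abundant phosphodiesterase per length in both groups, had 254, 163 and 240.3 CPM under the label Ctrl and 323, 271 and 294 CPM under the label cKO. The groups did not overlap, but the library labelled Ctrl 2 was far below the other two of its group, and the log2 fold change of 0.44 (standard error 0.17) missed the threshold (edgeR adjusted p = 0.107). Per kilobase of exon, Pde4 genes summed to 58.1, 43.5 and 55.3 CPM in the Ctrl-labelled libraries and 78.9, 77.9 and 78.8 CPM in those labelled cKO. Pde4 genes thus made up 40.6% to 45% of all phosphodiesterase counts per kilobase under the label Ctrl and 52.7% to 55.5% under the label cKO. Without Pde6d, whose product is no enzyme in muscle, the shares were 47.9% to 52.2% and 58.3% to 62.5%, a choice of genes made after seeing the data. Within the family, Pde4b took 11.2% to 15.6% under the label Ctrl and 18.7% to 25% under the label cKO, while Pde4c took 6.42% to 12.6% and 2.97% to 4.16%. The share of Pde4d, 56.3% to 65.8% and 52.3% to 61.6%, overlapped between the groups. Counts are per gene, so the long and short forms of each Pde4 enzyme, which start at different promoters, are not separated.

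**Figure D2:**
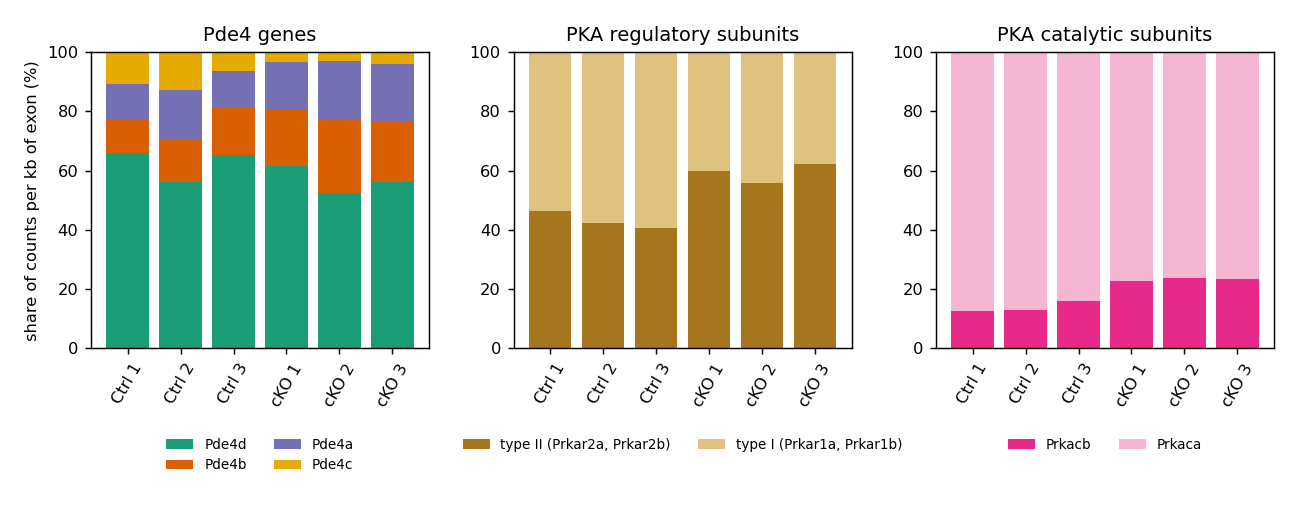
Shares of counts per kilobase of exon in each of the 6 libraries (vertical axis, percent) within the Pde4 genes, the PKA regulatory subunits and the PKA catalytic subunits. Type II regulatory subunits lie below 50% in each library labelled Ctrl (46.3% at most) and above it in each labelled cKO (55.8% at least), and Prkacb is at 12.5% to 16.1% against 22.7% to 23.7%.

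Pde10a, which hydrolyses both cAMP and cGMP and is best known from the striatum, had 10.2, 9.53 and 12.4 CPM in the Ctrl-labelled libraries and 5.42, 6.21 and 5.29 CPM in those labelled cKO. Each library labelled cKO was below each labelled Ctrl, a log2 fold change of -0.92 (standard error 0.14, edgeR adjusted p = 0.0056). Pde10a lies on chromosome 17 (8525372 to 8986648).

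The other 15 phosphodiesterase genes tested, Pde4d aside, did not pass, with log2 fold changes from -0.45 (Pde1b) to 0.73 (Pde1c). Nearest to the threshold were Pde1c (edgeR adjusted p = 0.0579), which calcium and calmodulin activate, and had 0.531 to 0.587 CPM under the label Ctrl and 0.795 to 1.04 CPM under the label cKO, and the cAMP-specific Pde8a (adjusted p = 0.0607), with 28.3 to 39.8 and 23.4 to 28.5 CPM. Pde8a passed with total counts (adjusted p = 0.0134) and with DESeq2 (adjusted p = 0.0367). By the mean over all 6 libraries Pde7a and Pde6d came next after Pde4d, but the order differed by group. Pde7a was at 15.8 CPM per kilobase under the label Ctrl and 17.4 under the label cKO, Pde6d at 16.4 and 15.8, and Pde4b at 7.06 and 16.7. Pde7a, a cAMP-specific enzyme, had 132, 71.5 and 104 CPM under the label Ctrl and 93, 135 and 111 CPM under the label cKO. Its replicates spread more than the groups differed (log2 fold change 0.15, standard error 0.23, and -0.10 with total counts). Pde6d is a carrier of lipid-modified proteins rather than an enzyme in muscle. It had 23.1 to 25.2 and 20.7 to 25.4 CPM (log2 fold change -0.05, standard error 0.10). With total counts Pde6d passed at -0.31 (edgeR adjusted p = 0.0336), as did Pde1b at -0.70 (adjusted p = 0.035). Pde2a, stimulated by cGMP and abundant in endothelium, had 49.6 to 57.6 and 49 to 55.9 CPM, with a log2 fold change of -0.01 (standard error 0.09). It shares 3893 of its 4427 exon bases with Gm45837, so its level is uncertain.

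Pde4dip was the most highly counted gene of the set, with 4653, 4521 and 4119.7 CPM under the label Ctrl and 5952, 5127 and 5515 CPM under the label cKO. The groups were apart but the log2 fold change of 0.32 (standard error 0.12) missed the threshold in edgeR (adjusted p = 0.1) and passed it in DESeq2 (adjusted p = 0.00895). With total counts it was 0.06.

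**Figure D3:**
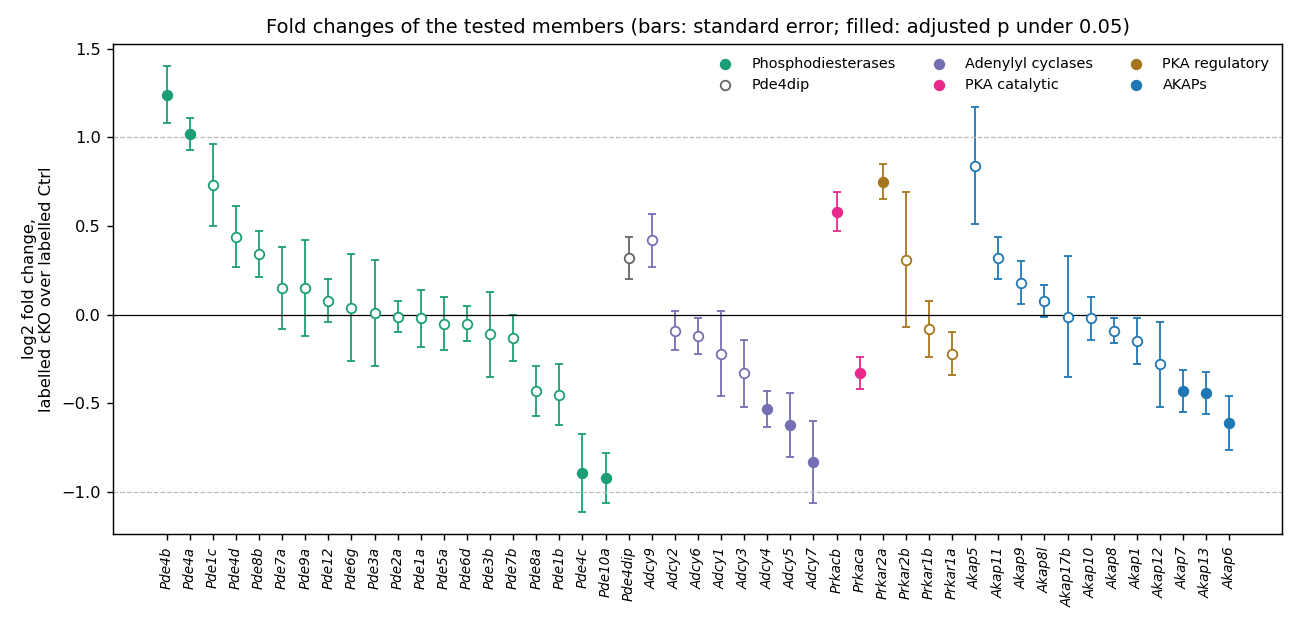
The log2 fold change of each of the 47 tested genes (vertical axis, labelled cKO over labelled Ctrl) by family, with its standard error as a bar, filled where the adjusted p was under 0.05, and dashed lines at a fold change of 2. Pde4b (1.24) and Pde4a (1.02) lie above the upper line, and no gene lies below the lower one, the lowest being Pde10a (-0.92).

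The cyclases called by edgeR were not the abundant ones. Per kilobase of exon, Adcy9, Adcy2 and Adcy6 led in both groups, at 18.7, 17.9 and 10.8 CPM per kilobase under the label Ctrl and 25, 16.8 and 9.98 under the label cKO, and none of the 3 passed the test. Adcy9, stimulated by Gs like the other membrane cyclases, had 101, 103 and 87.6 CPM under the label Ctrl and 152, 101 and 138 CPM under the label cKO. The library labelled cKO 2 lay within the range of the other group (log2 fold change 0.42, standard error 0.15, edgeR adjusted p = 0.0901). Adcy9 passed in DESeq2 (adjusted p = 0.0469). Its share of cyclase counts per kilobase was 30.8% to 34.1% under the label Ctrl and 37.7% to 45.3% under the label cKO, without overlap. Adcy2, a cyclase that G protein beta-gamma subunits enhance, ranged from 68 to 87.1 and from 65.9 to 73.9 CPM, and Adcy6, inhibited by calcium, from 60.5 to 70.5 and from 52.7 to 66 CPM. Their groups overlapped, with log2 fold changes of -0.09 (standard error 0.11) and -0.12 (standard error 0.10). With total counts both passed, at log2 fold changes of -0.35 and -0.38. Summed over the cyclases, CPM per kilobase was 58 ± 3.15 (SD, n = 3) under the label Ctrl and 58.8 ± 6.59 (SD, n = 3) under the label cKO, a difference within the spread of the replicates.

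Adcy4 (chromosome 14, 55769057 to 55784095), a cyclase that beta-gamma subunits stimulate, was at 21.1, 20.8 and 25.5 CPM in the Ctrl-labelled libraries and 15.5, 16.4 and 14.8 CPM in those labelled cKO. All 3 values under the label cKO were lower (log2 fold change -0.53, standard error 0.10, edgeR adjusted p = 0.0133). Adcy7, of the same subgroup and known from blood cells, had 14.6, 13.6 and 17.8 CPM against 5.7, 11.1 and 9 CPM. Its groups did not overlap either, with the highest library labelled cKO, number 2, nearest to the others (log2 fold change -0.83, standard error 0.23, edgeR adjusted p = 0.0413). Adcy5, a calcium-inhibited cyclase prominent in heart and striatum, had 6.05, 6.06 and 5.33 CPM against 4.66, 3.77 and 2.93 CPM (log2 fold change -0.62, standard error 0.18, edgeR adjusted p = 0.0475). The calls of Adcy7 and Adcy5 were each kept in 1 of the 6 fits that left out a library, with adjusted p up to 0.0995 without Ctrl 3 for Adcy7 and 0.134 without Ctrl 1 for Adcy5.

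Some markers of other cell types were also lower under the label cKO. Immune markers (7 genes, of which Cd3e and Cd79a were too low to test) summed to 48.5 to 61.5 CPM under the label Ctrl and 25.3 to 39.7 CPM under the label cKO, and 3 of 5 tested were higher under the label Ctrl, beside 11.8% of all genes. That count was 0 without Ctrl 2 or cKO 3, 1 without Ctrl 3 or cKO 1, 2 without Ctrl 1, and 5 without cKO 2 or with total counts. The library labelled cKO 2 was the highest of its group in both Adcy7 and the immune sum, while Adcy7 was lowest of its group in Ctrl 2 and the immune sum in Ctrl 1. Smooth muscle and pericyte markers (6 genes) summed to 463 to 486 and 365 to 404 CPM, with 3 higher under the label Ctrl. This number was 0 without Ctrl 1 or Ctrl 2, 1 without cKO 1 or cKO 3, and 6 with total counts. Endothelial markers (6 genes) summed to 389.9 to 400.4 and 346 to 383 CPM, with 1, Vwf, higher there (2 without cKO 2 or with total counts) and a median log2 fold change of -0.10. The part of these cells in the levels of Adcy7 and Adcy4 was not tested. In whole muscle, fewer cells of a type and less RNA per cell cannot be told apart.

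Of the 4 regulatory subunits 1 passed the test, a share near the 24.4% of all genes. Prkar2a encodes the type II alpha subunit, which is held by AKAPs at fixed places in the cell. The gene (chromosome 9, 108689314 to 108750436) was at 205, 207 and 206 CPM in the Ctrl-labelled libraries, the tightest replicates of the 13 called genes, and 375, 306 and 358 CPM in those labelled cKO. The lowest library labelled cKO was thus far above the other group (log2 fold change 0.75, standard error 0.10, edgeR adjusted p = 0.00391, 1.68-fold). Prkar1a encodes the type I alpha subunit, which is found largely in the cytosol and at the neuromuscular junction. It had 196, 232 and 253 CPM against 206, 201 and 177 CPM, so the groups overlapped (log2 fold change -0.22, standard error 0.12, edgeR adjusted p = 0.204). With total counts it passed, at -0.47 (adjusted p = 0.0224). The beta subunits Prkar1b and Prkar2b were scarce, with 1.64 to 1.81 CPM and 2.12 to 5.22 CPM over all 6 libraries, and did not pass. Type II subunits made up 46.3%, 42.3% and 40.7% of regulatory counts per kilobase under the label Ctrl and 60%, 55.8% and 62.3% under the label cKO. Per kilobase, Prkar1a was therefore the leading subunit in each library labelled Ctrl and Prkar2a in each labelled cKO. Without division by exon length, Prkar2a (205 CPM) was above Prkar1a (196 CPM) in the library labelled Ctrl 1 too. The difference in the mean type II share per kilobase was 16.3 percentage points, and 14.8 to 18.1 with each library left out in turn.

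The catalytic subunits moved in opposite directions. Prkaca on chromosome 8 (83972993 to 83996443), the alpha subunit and the more abundant per kilobase, had 179, 178 and 169 CPM under the label Ctrl and 152, 134 and 131 CPM under the label cKO. Its values were lower in all 3 cKO-labelled libraries, by a small step (log2 fold change -0.33, standard error 0.09, edgeR adjusted p = 0.0298). This call was kept in 2 of the 6 fits that left out a library, with an adjusted p of 0.103 without cKO 3. Prkacb on chromosome 3 (146729574 to 146812990), the beta subunit, had 53.7, 54.8 and 68.1 CPM against 93.6, 87.3 and 83.3 CPM. Its values were higher in all 3 cKO-labelled libraries (log2 fold change 0.58, standard error 0.11, edgeR adjusted p = 0.0115), but with total counts the change was 0.33 and the adjusted p 0.0515. Prkacb supplied 13.8% ± 2.0 (SD, n = 3) of catalytic counts per kilobase under the label Ctrl and 23.2% ± 0.498 (SD, n = 3) under the label cKO. The ratio of catalytic to regulatory counts per kilobase was 0.904, 0.821 and 0.766 under the label Ctrl and 0.616, 0.624 and 0.588 under the label cKO, with no overlap. These are levels of transcripts, and the counts give no measure of subunit protein.

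Of the 12 AKAPs tested, 3 were higher in the Ctrl-labelled libraries and 0 in those labelled cKO by edgeR's test, beside 11.8% and 12.6% of all genes. DESeq2 also called 0 higher under the label cKO, while 2 (Akap5 and Akap11) were at an unadjusted p under 0.05. Akap6 encodes mAKAP, which holds PKA and Pde4d at the nuclear envelope of striated muscle. It had 127, 105 and 139 CPM in the Ctrl-labelled libraries and 70.1, 96.8 and 76.1 CPM in those labelled cKO. The highest library labelled cKO, number 2, came closest to the lowest labelled Ctrl, also number 2 (log2 fold change -0.61, standard error 0.15, edgeR adjusted p = 0.0268). Akap13 encodes AKAP-Lbc, an anchor that is also a guanine nucleotide exchange factor. It had 150.3, 122 and 135 CPM against 89.6, 114 and 96.7 CPM (log2 fold change -0.44, standard error 0.12, edgeR adjusted p = 0.0356). Akap7, whose product ties PKA to the calcium channel of muscle, had 17.8, 16.6 and 16.5 CPM against 11, 14.8 and 11.9 CPM (log2 fold change -0.43, standard error 0.12, edgeR adjusted p = 0.0426). In all 3 genes the groups did not overlap and the library labelled cKO 2 was the highest of its group. The calls were kept in 2 of the 6 fits that left out a library for Akap6 and in 1 of 6 for Akap13 and Akap7, with an adjusted p up to 0.132 for Akap7 without Ctrl 1.

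Slow-fibre markers (8 genes) summed to 13682, 8195 and 8271 CPM in the Ctrl-labelled libraries 1, 2 and 3 and to 1749, 3321 and 345 CPM in those labelled cKO 1, 2 and 3. Within the label cKO, the slow sum, Akap6, Akap13 and Akap7 were each highest in cKO 2. The slow sum was lowest in cKO 3, and Akap6, Akap13 and Akap7 in cKO 1. Of the 8 genes 3 passed (Myl2, Tnnt1 and Atp2a2, higher under the label Ctrl, beside 11.8% of all genes), and the median log2 fold change was -2.46. This count was 0 without Ctrl 1, Ctrl 2 or cKO 1, 1 without Ctrl 3, 7 without cKO 2, and 6 without cKO 3 or with total counts. Markers of fast type IIb fibres (5 genes) summed to 23281, 36485 and 53356 CPM and to 117662, 83676 and 106757 CPM, with all 5 higher under the label cKO. Without Ctrl 2 or cKO 3, 1 of the 5 (Myoz1) was called, and without cKO 1, 3 were. The muscle markers Ckm, Acta1, Ttn, Neb and Des summed to 61226 to 63009 CPM under the label Ctrl and 66719.8 to 89216 CPM under the label cKO, with Ckm (0.77) and Neb (0.56) higher under the label cKO. Both were called in 2 of the 6 fits that left out a library (not without Ctrl 1, Ctrl 2, cKO 1 or cKO 3), and Neb lost the call with total counts (0.31, adjusted p = 0.0748). The part of fibre type in the levels of the cAMP genes was not tested. Of the remaining marker lists, 2 of 6 genes of fibro-adipogenic progenitors and 1 of 5 of Schwann cells were higher under the label Ctrl, beside 11.8% of all genes, and 0 of 5 adipocyte and 0 of 4 satellite cell markers passed in edgeR. Of these, Chodl alone was at an unadjusted p under 0.05, and DESeq2 called it, while Lep was called without cKO 3. With total counts 3 of the progenitor and 4 of the Schwann cell markers were called.

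The other AKAPs did not pass in the main fit. Akap1, which anchors PKA at mitochondria, was the most abundant per length, with 116 to 139 CPM under the label Ctrl and 104 to 137 CPM under the label cKO (log2 fold change -0.15, standard error 0.13). Akap8, a nuclear AKAP, had 71.1 to 78.1 and 68.5 to 74.3 CPM, with a log2 fold change of -0.09. With total counts Akap8 passed, at -0.34 (edgeR adjusted p = 0.038). Akap8l, also nuclear, had 36.4 to 41.3 and 38.5 to 44.4 CPM, with a log2 fold change of 0.08, or -0.18 with total counts. Akap11 had 27.1, 29.3 and 36.3 CPM against 36.9, 40.3 and 38.2 CPM, and Akap5, scarce at 0.715 to 1.18 against 1.3 to 2.44 CPM, had the largest log2 fold change of the family, 0.84 (standard error 0.33), without passing (edgeR adjusted p = 0.0874 and 0.109). The groups did not overlap in these last 2 genes. Akap2 had 0 to 3 counts per library, and shares 4627 of its 7735 exon bases with Pakap.

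The 11 genes of the set that did not pass the filter were Pde6a, Pde6b, Pde6c and Pde6h of the photoreceptor family, Pde11a, Adcy8, Adcy10, Akap2, Akap3, Akap4 and Akap14. Akap4, Pde6c and Pde6h had 0 counts in every library. Pde11a reached 15 counts in the library labelled cKO 1 and 5 or fewer in the others, and no other gene of the 11 reached more than 6 counts.

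Other genes of the pathway were taken from 10 lists by role, 90 genes in all with none of the 58 among them. Of the 83 tested, 16 were higher in the cKO-labelled libraries and 7 in those labelled Ctrl, 27.7% together beside the 24.4% of all genes, with a median log2 fold change of 0.01. Without cKO 1 or cKO 3 the count higher under the label cKO was 7, and without Ctrl 1 or Ctrl 2 it was 8, while 4 were higher under the label Ctrl without Ctrl 1, Ctrl 2 or cKO 1. With total counts the counts were 10 and 19. Of the 23 calls, 17 were kept with total counts and 10 in each of the 6 fits that left out a library: Rapgef4, Popdc3, Cmya5, Crem, Phka1, Phkb, Ppp1r1a, Ppp1r3a, Prkg2 and Nos1. At the head of the pathway, Gnas, the stimulatory G protein, had 1266 to 1338 and 1345 to 1553 CPM (log2 fold change 0.16, standard error 0.10, edgeR adjusted p = 0.281). Of 18 receptors and partners tested, Mc5r (1.37) and Ramp1 (0.51) were higher under the label cKO and Ptgir (-0.75) under the label Ctrl, each called in 1 of the 6 fits that left out a library. With total counts Ramp1 (0.26, adjusted p = 0.212) and Mc5r (1.12, adjusted p = 0.0541) lost the call. Gnal, the olfactory-type stimulatory subunit, was lower under the label cKO (-1.02), as was Rgs2, a regulator of G protein signalling (-1.11), while Adrbk2, a receptor kinase, was higher (1.02). Without 1 library, Gnal and Adrbk2 were each called in 2 of the 6 fits and Rgs2 in 1, and Adrbk2 lost the call with total counts (adjusted p = 0.0539). Of the PKA inhibitor peptides, the abundant Pkia had 557, 597 and 779 CPM against 807, 826 and 772 CPM, and did not pass (log2 fold change 0.31, standard error 0.14, edgeR adjusted p = 0.14).

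The largest change among the cAMP effectors was in Rapgef4, which encodes Epac2, an exchange factor for Rap that cAMP opens directly. It had 13.4, 14.4 and 18.6 CPM in the Ctrl-labelled libraries and 1.64, 3.4 and 2.3 CPM in those labelled cKO. The lowest library labelled Ctrl was thus well above the highest labelled cKO (log2 fold change -2.65, standard error 0.26, edgeR adjusted p = 0.00201). Rapgef4 shares 337 of its 4602 exon bases with an antisense transcript. Its relative Rapgef3, encoding Epac1, had 22.6 to 24.6 against 19.5 to 21 CPM. The log2 fold change of -0.22 (standard error 0.08) missed the threshold (edgeR adjusted p = 0.0759). With total counts Rapgef3 passed, at -0.48 (adjusted p = 0.0102). The Popeye proteins, cAMP-binding membrane proteins of striated muscle, split: Popdc2 was higher under the label cKO (0.78) and Popdc3 under the label Ctrl (-0.43). Hcn3, a pacemaker channel gene at 0.395 CPM or less, was also called (1.80).

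Of 8 PKA substrates of muscle, 6 were higher under the label cKO by edgeR's test, beside 12.6% of all genes, and the median log2 fold change of the 8 was 0.77. The 6 were the phosphorylase kinase subunits Phka1 (1.47) and Phkb (1.16), the phosphatase regulators Ppp1r1a (1.49) and Ppp1r3a (0.90), and the calcium release and sensor channels Ryr1 (0.64) and Cacna1s (0.60). With total counts 4 of them passed, without Ryr1 (adjusted p = 0.0584) and Cacna1s (adjusted p = 0.0899), which were also called in only 2 and 1 of the 6 fits that left out a library. In the main edgeR fit none was called higher under the label Ctrl. Pln, or phospholamban, was at an unadjusted p of 0.0273 in that fit and passed in DESeq2 (adjusted p = 0.0488). With total counts edgeR called Pln (-0.82, adjusted p = 0.0295) and Lipe (-0.46, adjusted p = 0.0285) higher under the label Ctrl. Of 9 PKA anchors named otherwise, 3 were higher under the label cKO and the median log2 fold change was -0.15. Cmya5, or myospryn, had 2049.9, 2022 and 2216 CPM against 4902, 3612 and 4322 CPM (log2 fold change 1.03, standard error 0.14), and Synm, or synemin, was higher too (1.01). Sphkap (2.19) was at 0.465 CPM or less under the label Ctrl. Rab32 (-0.94, edgeR adjusted p = 0.0535) and Arfgef2 (-0.32, edgeR adjusted p = 0.0516) missed the threshold and passed in DESeq2 (adjusted p = 0.0248 and 0.0336).

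Among the transcription factors, Creb1 had 18.8 to 22.9 and 21.4 to 24 CPM (log2 fold change 0.12, standard error 0.10). Crem, whose promoters also make the repressor ICER, had 22.6, 18.3 and 25.4 CPM against 10.8, 12.6 and 10.5 CPM, lower in every library labelled cKO (log2 fold change -0.96, standard error 0.14, edgeR adjusted p = 0.0055). The coactivator Ep300 was called in the other direction (0.30), but not with total counts (0.04, adjusted p = 0.725), and in 1 of the 6 fits that left out a library. Of 7 CREB-responsive genes, among them Nr4a1, Ppargc1a, Sik1 and Fos, 0 passed in edgeR, in DESeq2 or at an unadjusted p under 0.05, with log2 fold changes from -1.78 to 0.44 and no gene whose groups were apart. The lowest, that of Nr4a3, rested on Ctrl 3, with 2943 counts beside 216 to 441 in the other libraries, and was 0.34 without it. In the cGMP arm, Nos1, the nitric oxide synthase of the fibre membrane, was higher under the label cKO (1.75) and Prkg2, a cGMP-dependent kinase, under the label Ctrl (-1.27).

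**Figure D4:**
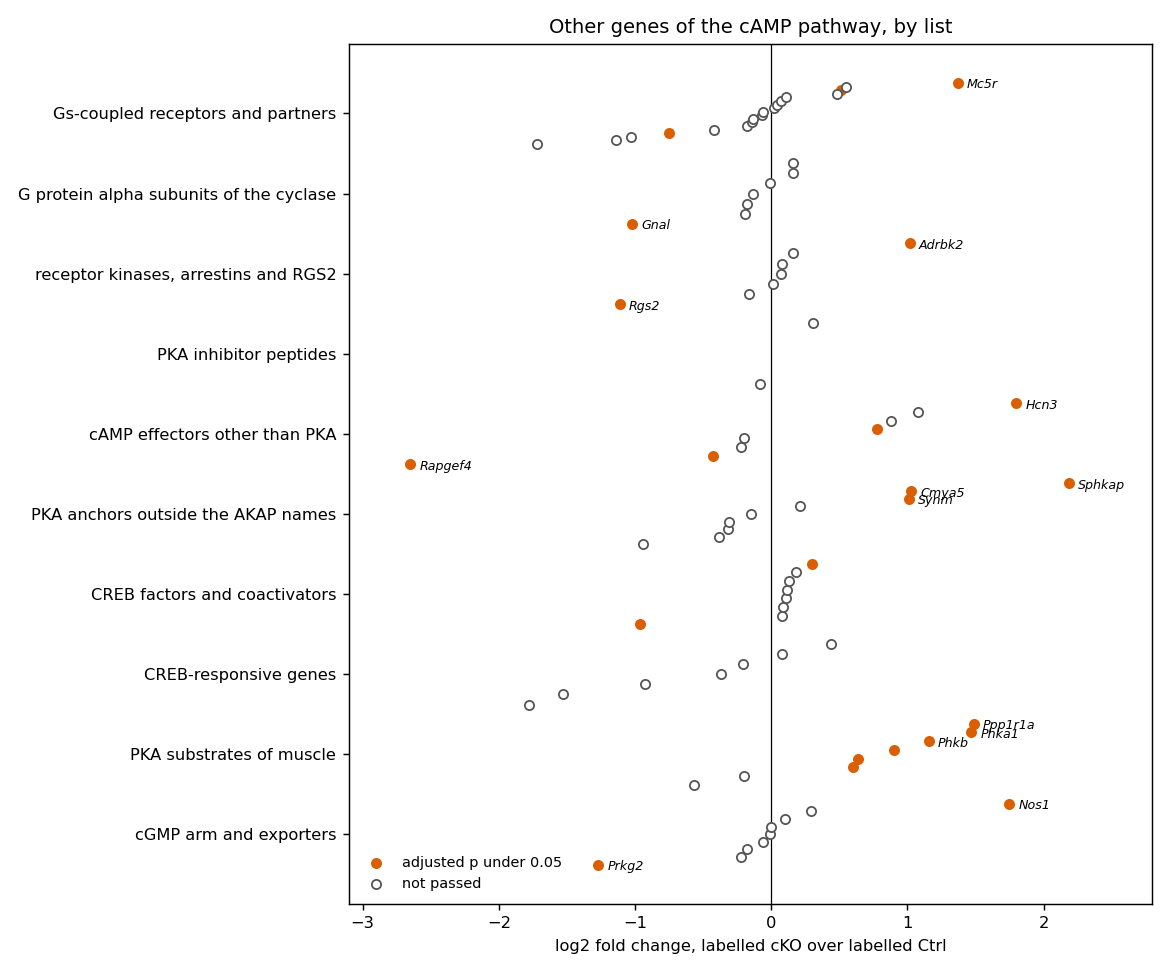
The log2 fold changes (horizontal axis, labelled cKO over labelled Ctrl) of the 83 other pathway genes tested, by list, filled where the adjusted p was under 0.05 and named where the fold change was also over 2. Rapgef4 (-2.65) lies lowest, and the 6 called PKA substrates all lie above 0.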

How the data were processed

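Bulk RNA-Seq of GP muscle was available as read counts per gene, 1 file per mouse, deposited by the authors. The submitters' processing notes name FastQC 0.11.8, Trimmomatic 0.39, HISAT2 2.1.0 and featureCounts 1.6.2. Reads were mapped to mm10, and the annotation and strand setting are not given in the sources used here. Without strand, reads of overlapping genes on opposite strands cannot be told apart.

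Here, edgeR 4.0.16 (R 4.3.3) was run on all 6 libraries with its expression filter, TMM factors and the quasi-likelihood test, unpaired, with Benjamini-Hochberg adjustment over the 14180 genes kept. DESeq2 1.42.0, other scalings, other filters, a replicate block and leaving out each library were alternatives. CPM used TMM-scaled library sizes, and CPM per kilobase the exon length of GENCODE M21 models (58 of 58 genes matched). P-values measure the spread between these mice, and an exact permutation test of 3 against 3 cannot go below p = 0.1. Replicates differed by more than sampling noise (chi-square per degree of freedom 29.5 to 101). Tested on simulated data, the fit recovered 190 of 200 genes changed 4-fold, with 11 other calls among 14034 genes. Changes in the set were smaller (2.36-fold at most), and 24.4% of all genes were called here. The simulation did not measure recovery or false calls under such conditions.

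The genes and lists were chosen with earlier results of these data known. Named were all called genes of the set, the 3 most abundant per kilobase in each family, the genes not tested, called pathway genes with a fold change over 2, and Gnas, Pkia, Rapgef3, Creb1 and Crem. A gene that the rule also named is not reported here. Other genes were named after their values were seen.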

Additional observations from a re-analysis of the deposited data

How the results depend on the processing

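The count of cAMP genes higher in the libraries labelled cKO (4) ranged from 3 to 6 over the alternatives, and the direction of each of the 13 called genes was the same in all of them. The count higher in the libraries labelled Ctrl (9) was 16 with total counts and ranged from 2 to 7 with a library left out. With a fold over 2, the counts of 2 and 0 became 0 and 3 with total counts, and ranged from 1 to 2 and from 0 to 2 with a library left out. For the other pathway genes, the counts of 16 and 7 became 10 and 19 with total counts, and ranged from 7 to 16 and from 4 to 9 with a library left out. The median log2 fold change of the set (-0.05) was -0.30 with total counts, where that of all genes was -0.27, and -0.09 to -0.05 with a library left out. Without division by exon length the catalytic to regulatory difference was -0.121 in place of -0.221. Of the 34 genes of the set that did not pass, 7 changed sign with total counts and 14 with a library left out, 16 in all, with log2 fold changes of at most 0.28 in size. Among the most abundant of each family these were Akap8l (-0.18) and Pde7a (-0.10) with total counts, Pde7a without Ctrl 2 (-0.05) or cKO 2 (-0.02), Adcy2 without Ctrl 1 (0.02) and Pde6d without cKO 2 (0.01). With a library left out, Adcy2 ranged from -0.16 to 0.02, Pde6d from -0.14 to 0.01 and Pde7a from -0.05 to 0.37. Adcy5 also lost its call with DESeq2 size factors (edgeR adjusted p = 0.0501) and with no filter (0.0518). The cause of these changes was not tested.

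Same-numbered mice did not deviate together (correlations 0.0835, -0.215 and -0.00201). This gave no sign that the numbers pair them, but with so few mice it cannot exclude pairing. With the replicate block, 4 genes of the set were higher under the label cKO and 2 under the label Ctrl, and 7 and 4 of the other pathway genes. The counts with a fold over 2 stayed at 2 and 0 with the block. Depth limits the scarce genes: Akap5, Pde1c and Hcn3 lay near or below 1 CPM in most libraries.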
